A study of Rattus norvegicus with 10 samples.

Results

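Drd1, Drd2, Ppp1r1b, Adora2a, Penk and Tac1 were followed in the prefrontal cortex (PFC), 6 genes that together mark the dopamine-sensitive projection neurons of the striatum. They were taken by their Ensembl identifiers, with no rule on a measured value. The choice was made with earlier results of these data known. Of the 6, 5 had a row among the 30560 genes of the deposited counts, and all 5 passed the filter on low counts, which left 16137 genes for the test. Tac1 (ENSRNOG00000007374), which encodes the precursor of substance P, had no row and was not analysed here.

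PFC tissue came from 10 wild-type male Sprague-Dawley (SD) rats. By the methods, rats were 21 days old when purchased and were dosed after a week of habituation. That is stated in the general section on animals, and the RNA-seq section gives no age of its own. Nor does it give the time from the last dose to tissue collection. The control group (n = 5) received saline (0.9%) and the MK-801 group (n = 5) received MK-801 at 0.2 mg/kg, both by intraperitoneal injection for 2 weeks. MK-801 is a non-competitive antagonist of the NMDA receptor, and repeated dosing is used as a pharmacological model of schizophrenia. The methods give 5 rats and the labels 5 numbered RNA-seq libraries in each group, taken here as 1 library per rat.

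In the striatum, dopamine acts on 2 sets of projection neurons. Those of the direct pathway carry the D1 receptor, encoded by Drd1, which raises cyclic AMP, and make the peptide precursor encoded by Tac1. Those of the indirect pathway carry the D2 receptor, encoded by Drd2, which lowers cyclic AMP, together with the adenosine receptor encoded by Adora2a and they make enkephalin from the precursor encoded by Penk. Both sets are rich in DARPP-32, the product of Ppp1r1b, which inhibits protein phosphatase 1 once protein kinase A has phosphorylated it. The cortex also holds dopamine receptors on pyramidal neurons and interneurons, and some cortical interneurons make enkephalin.

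Total counts ranged from 24334589 to 30824539 per rat, and in all 45 pairs of rats the libraries differed by more than counting noise (lowest chi-square per degree of freedom, 8.83). The 10 most abundant genes took between 5.86% and 10.9% of the counts, with the lowest shares in MK-801 replicate 5 and control replicate 5. The table gives identifiers only, and none of them could be paired with a symbol other than those of the 6 genes, so markers of the cortex and of other tissues, further dopamine receptors and further striatal genes are not analysed here, and the labelled tissue could not be checked against its own markers. In such bulk tissue, fewer cells of a type and less RNA per cell cannot be told apart. Levels are given as CPM, the count of a gene scaled to a common library size with TMM (edgeR), and since CPM is not corrected for gene length, levels are compared between rats and not between genes.

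None of the 5 genes passed an adjusted p-value of 0.05 in edgeR's quasi-likelihood test, and none met the criteria of the methods (p-value under 0.05, taken here as unadjusted since the methods do not say, and absolute log2 fold change of at least 1). Among all genes tested, 0% passed the first rule and 0.229% the second. At an unadjusted p-value under 0.05, 1 of the 5 passed, Penk, beside 13.9% (2235) of all genes tested. DESeq2, run without this filter on 23914 genes, passed 2377 genes at the unadjusted level and 104 at the adjusted one. None of them was among the 5. There both the tool and the filter differed, and the default settings of DESeq2 leave genes of low mean count out of the adjustment. With edgeR and no filter, 0 of the 23914 genes passed at the adjusted level. In each of the 5 genes the ranges of the groups overlapped, whereas 2.31% of all genes tested had no overlap. Drd1 and Penk had a mean above that of the control group and the other three a mean below it. The median log2 fold change of the 5 was -0.24, and that of all genes tested was -0.01.

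Drd1 (ENSRNOG00000023688), the D1 receptor gene, differed more between rats of a group than between the groups. In control replicates 1 to 5 its level was 13.5, 19.6, 15.9, 12.5 and 23.7 CPM, and in MK-801 replicates 1 to 5 it was 14.7, 18.6, 14.5, 11.2 and 34.3 CPM. The highest rat of each group was the one numbered 5, and the remaining MK-801 rats lay within or just under the control range. MK-801 rats averaged 18.6 ± 9.15 CPM (SD, n = 5) and control rats 17.0 ± 4.61 CPM (SD, n = 5). The log2 fold change was 0.13 (standard error 0.28, 95% interval -0.47 to 0.74, adjusted p = 0.856 in edgeR, Benjamini-Hochberg), and the two-sided exact permutation test of log2 CPM gave p = 0.881. Its direction was not stable. The fold change was 0.29 on the log2 scale without control replicate 5 and 0.04 without control replicate 4. Without MK-801 replicate 5 the log2 fold change was -0.21, and without both rats numbered 5, a setting chosen after seeing the data, it was -0.056. The difference of mean log2 CPM, 0.06 over all rats, also turned negative without control replicate 1 or 4.

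Drd2 (ENSRNOG00000008428), the D2 receptor gene, had low counts, from 92 in MK-801 replicate 3 (95% exact Poisson interval 74.2 to 113, for counting error alone) to 299 in control replicate 5 (266 to 335). The control rats had 5.06, 5.37, 7.82, 5.02 and 10.1 CPM, and the MK-801 rats had 4.50, 7.78, 3.44, 4.05 and 6.74 CPM. MK-801 replicates 1, 3 and 4 lay below every control rat, and replicates 2 and 5 lay inside the control range. Its mean was 5.30 ± 1.86 CPM (SD, n = 5) with MK-801 and 6.67 ± 2.24 CPM (SD, n = 5) with saline. A log2 fold change of -0.33 was obtained (standard error 0.26, 95% interval -0.90 to 0.23, adjusted p = 0.584 by edgeR), with p = 0.294 in the exact permutation test. Single rats moved this value by more than 1.5 times, to -0.13 without control replicate 5, to -0.21 with MK-801 replicate 3 left out and to -0.51 with MK-801 replicate 2 left out, and Drd2 passed the unadjusted level in none of these.

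Of the 5 genes, 2 had an entry among the RefSeq promoter windows of assembly GRCr8, Drd1 and Drd2, and the 250 bases before the start of Drd2 are shown because Drd1 and Drd2 had the closest correlation across rats. The window of Drd1 lay inside the annotated span of that gene and is not printed. The Drd2 window is chr8:58605153-58605402 on the plus strand, and the capitals mark matches to the GC box, searched as GGGCGG and on the other strand as CCGCCC.

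Drd2 upstream: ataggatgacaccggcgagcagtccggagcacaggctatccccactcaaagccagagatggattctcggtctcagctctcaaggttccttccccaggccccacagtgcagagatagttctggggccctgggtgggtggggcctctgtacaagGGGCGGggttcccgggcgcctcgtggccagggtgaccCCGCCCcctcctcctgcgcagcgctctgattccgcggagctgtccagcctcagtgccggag

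The Drd2 window held 2 GC boxes, while 30.5% of all 33469 windows of this length held at least 1. The Drd1 window held 0, but it lay inside the annotated span of its gene, so the 2 windows are not like regions. G and C made up 66% of the Drd2 window, against a median of 51.2% over all windows. Neither window matched TATAAA, found in 12.9% of all windows on either strand, nor the cyclic AMP response element TGACGTCA, found in 1.59%. These are matches of letters only, and no binding was measured.

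Ppp1r1b (ENSRNOG00000028404), the DARPP-32 gene, had the most counts of the 5, between 2086 and 4880 per rat. Control replicates 1 to 5 had 99.4, 139, 158, 130 and 147 CPM, and MK-801 replicates 1 to 5 had 97.8, 88.5, 135, 83.6 and 157 CPM. In the MK-801 group, replicate 3 lay inside the control range, replicate 5 lay just under its highest rat, and replicates 1, 2 and 4 lay under the lowest control rat. The means were 112 ± 32.2 CPM (SD, n = 5) for MK-801 and 135 ± 22.3 CPM (SD, n = 5) for control, a log2 fold change of -0.26 (standard error 0.18, 95% interval -0.65 to 0.13, adjusted p = 0.526 by edgeR; two-sided exact permutation test, p = 0.214). Without MK-801 replicate 5 its log2 fold change was -0.41 and it passed the unadjusted level, at an adjusted p = 0.338 (edgeR). It also did so without both rats numbered 5 (log2 fold change -0.37, adjusted p = 0.266 in edgeR). Without MK-801 replicate 4 the value was smaller, -0.17 (adjusted p = 0.691 in edgeR).

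Adora2a (ENSRNOG00000001302), the adenosine receptor gene of the indirect pathway, was likewise low in counts, with 94 to 196 per rat. Its levels were 4.54, 6.23, 5.11, 6.31 and 4.42 CPM in the control rats and 6.53, 3.75, 3.89, 4.97 and 3.29 CPM in the MK-801 rats. The highest and the lowest of all 10 rats were both MK-801 rats, replicates 1 and 5. MK-801 rats averaged 4.49 ± 1.30 CPM (SD, n = 5) against 5.32 ± 0.904 CPM (SD, n = 5) for control rats. The log2 fold change was -0.24 (standard error 0.19, 95% interval -0.66 to 0.17, adjusted p = 0.585 by edgeR), with p = 0.222 in the exact permutation test. Without MK-801 replicate 1 it was -0.42, and Adora2a then passed the unadjusted level, with an adjusted p = 0.430 (edgeR). It was -0.14 without MK-801 replicate 5, and -0.10 with the percentage of counts held by the 10 most abundant genes, the top-10 share, added to the fit.

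Penk (ENSRNOG00000008943), the enkephalin precursor gene, had the largest fold change of the 5. The control rats had 28.4, 42.9, 27.0, 47.2 and 47.4 CPM, and the MK-801 rats had 30.6, 43.1, 87.6, 65.3 and 61.0 CPM. MK-801 replicates 3, 4 and 5 lay above every control rat, whereas replicates 1 and 2 lay inside the control range. The mean of 57.5 ± 21.9 CPM (SD, n = 5) with MK-801 was 1.49-fold that of 38.6 ± 10.1 CPM (SD, n = 5) with saline. The log2 fold change was 0.58 (standard error 0.26, 95% interval 0.02 to 1.13, both derived from the edgeR test itself). In edgeR the unadjusted p-value was 0.0438 and the adjusted one 0.350, which ranged from 0.216 to 0.923 over the alternatives, and the two-sided exact permutation test gave p = 0.151. The unadjusted call was lost in DESeq2 and limma-voom, at unadjusted p-values of 0.0524 and 0.0686. It was also lost without control replicate 1, 2 or 3 and without MK-801 replicate 3, 4 or 5, the log2 fold change then lying between 0.37, without MK-801 replicate 3, and 0.62. Without both rats numbered 5 the call was lost too (log2 fold change 0.64, unadjusted p = 0.0556 in edgeR). When the top-10 share was added to the fit, the log2 fold change was 0.35 and the call was lost (unadjusted p = 0.283 in edgeR). Penk passed the unadjusted level in 10 of the 20 alternatives. The share itself was lower in each MK-801 rat than in control replicates 1 to 4, and over the 10 rats Penk was lower where the share was higher (r = -0.569 by Pearson, with permutation p = 0.0843 and adjusted p = 0.333 over the 5 genes, and rho = -0.745 by Spearman, with permutation p = 0.0171 and adjusted p = 0.0599). Without the 2 rats farthest from the median share r was -0.484, and with the group means removed it was -0.398 (exact permutation p = 0.202, adjusted p = 0.374). Adora2a went the other way and was higher where the share was higher. Its r was 0.508 (permutation p = 0.133, adjusted p = 0.333) and its rho 0.721 (permutation p = 0.0240, adjusted p = 0.0599). Without the same 2 rats its r was 0.672, and with the group means removed 0.360 (exact permutation p = 0.224, adjusted p = 0.374). In none of the 5 genes did the relation pass an adjusted p-value of 0.05. These relations were computed after the data had been seen, and the part of the share in the differences of Penk and Adora2a was not tested further.

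**Figure D1:**
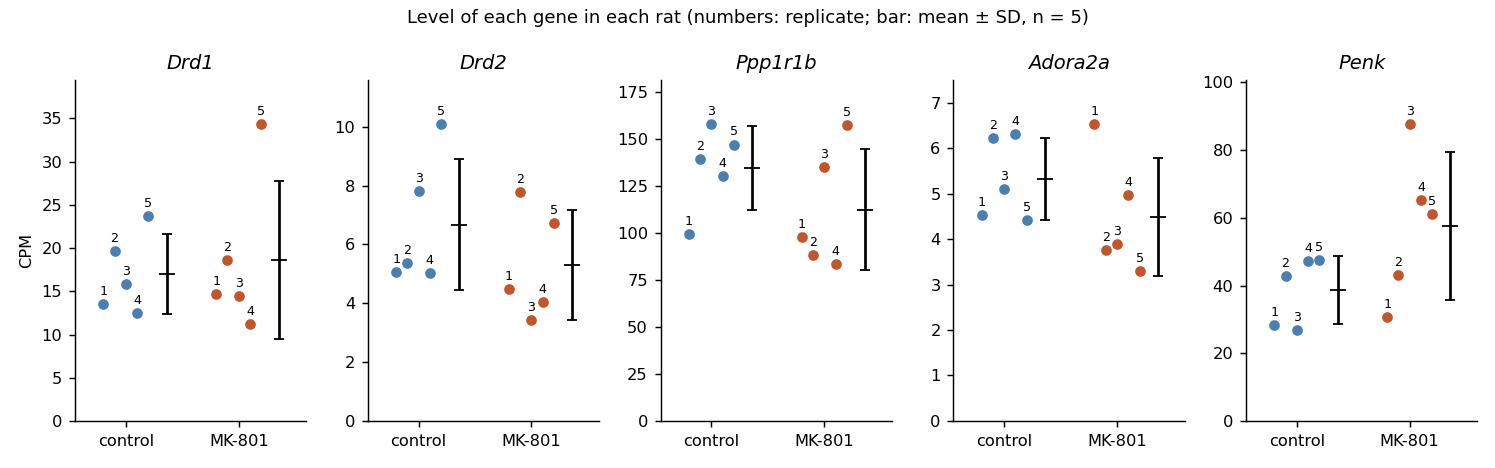
Level of each of the 5 genes in CPM (vertical axis, from 0) in the 5 control and 5 MK-801 rats, each point 1 rat numbered by its replicate, with the mean and SD of the group beside it. The groups overlap in every panel, and the rats numbered 5 are the highest of their groups for Drd1, at 23.7 and 34.3 CPM.

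**Figure D2:**
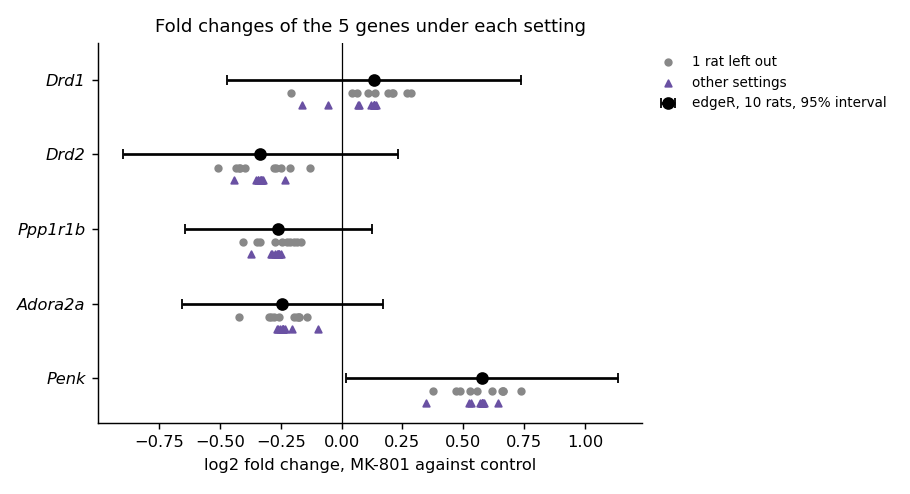
Log2 fold change of each gene, MK-801 against control, by edgeR with all 10 rats (black, with the 95% interval), with 1 rat left out (grey) and under the other settings (purple). Drd1 takes both signs, from -0.21 to 0.29, while Penk stays positive, from 0.35 to 0.74, and the other three stay negative.

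The spread between rats was wide for these genes. The SD of log2 CPM within the groups was 0.51 for Drd1, 0.50 for Penk and 0.47 for Drd2, and 92.7%, 92.3% and 90.9% of all genes tested had a smaller one. For Ppp1r1b it was 0.34 and for Adora2a 0.32, with 81.1% and 79.8% of genes below them. Genes with few counts also vary more through counting error, and this comparison was not adjusted for level.

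Whether the genes rose together in single rats was examined next, by the rank of each rat among the 10 for each gene, rank 1 being the highest. No rat lay above the mean of the 10 rats in all 5 genes. In control replicate 5 and MK-801 replicate 5, 4 of the 5 lay above it, though Penk in control replicate 5 did so by only 0.14 SD. How many rats would reach 4 of 5 with unrelated genes was not computed. Over all genes tested, the deviations of these 2 rats from their group means correlated at 0.319, the highest of the 5 same-numbered pairs. Whether their shared rise is particular to these genes was not tested. MK-801 replicate 5 had rank 1 in Drd1, rank 2 in Ppp1r1b, rank 3 in Penk and rank 4 in Drd2, and was the lowest of all rats in Adora2a. Control replicate 5 had rank 1 in Drd2, rank 2 in Drd1, rank 3 in Ppp1r1b, rank 4 in Penk and rank 7 in Adora2a. The rat with the most Adora2a, MK-801 replicate 1, had rank 6 in Drd1 and rank 8 in Drd2, Ppp1r1b and Penk. MK-801 replicate 3, with the most Penk, was the lowest in Drd2. Adora2a lay at -0.34 SD from its mean in control replicate 5, which had the most Drd2, and at -0.87 SD in MK-801 replicate 3. The part of striatal tissue in these levels was not tested.

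**Figure D3:**
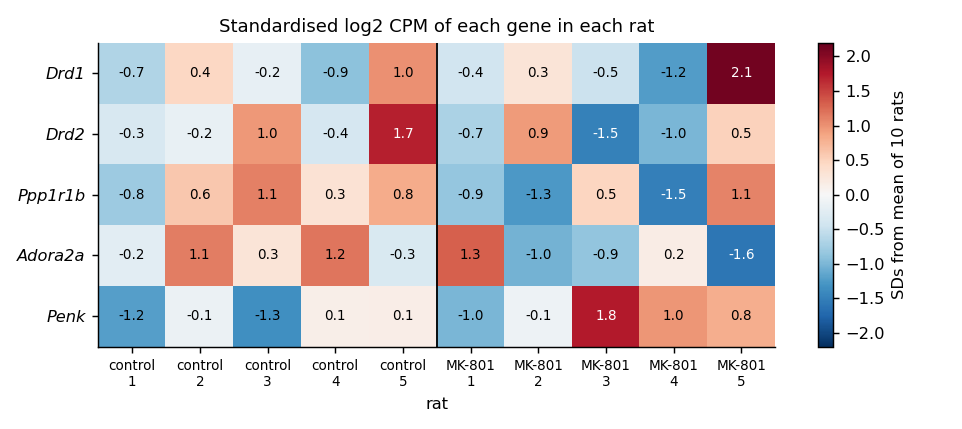
Log2 CPM of each gene (rows) in each rat (columns), in SDs from the mean of all 10 rats for that gene, red above and blue below. The columns of the rats numbered 5 are red for 4 genes and blue for Adora2a, at -0.34 in control replicate 5 and -1.59 in MK-801 replicate 5, and no column is red throughout.

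Across the 10 rats, 5 of the 10 pairs of genes had a positive and 5 a negative correlation of log2 CPM, and none passed an adjusted p-value of 0.05 over the 10 pairs (smallest adjusted permutation p = 0.368). The closest pair was Drd1 and Drd2, with r = 0.625 by Pearson (permutation p = 0.0500, adjusted p = 0.368) and rho = 0.721 by Spearman (permutation p = 0.0232, adjusted p = 0.232). Without the 2 rats farthest from the median of Drd1 r was 0.572, with each rat left out it was between 0.55 and 0.75, and with the group means removed it was 0.700. For scale, 6.20% of all genes tested had an r with Drd1 at least as high as this one, and 3.69% had one with Drd2. Negative correlations of the same size were not counted in these shares.

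Drd1 and Ppp1r1b followed with r = 0.564 (permutation p = 0.0867, adjusted p = 0.368) and rho = 0.624 (permutation p = 0.0604, adjusted p = 0.302), and without the 2 rats farthest from the median of Drd1 their r fell to 0.303. Drd1 and Adora2a had the lowest correlation, r = -0.534 (permutation p = 0.110, adjusted p = 0.368) and rho = -0.430 (permutation p = 0.218, adjusted p = 0.437). That value rested on few rats, since it was -0.22 without MK-801 replicate 5 and -0.09 without the 2 rats farthest from the median of Drd1. In the remaining pairs r lay between -0.445 (Adora2a and Penk) and 0.366 (Drd2 and Ppp1r1b). Adora2a had a negative correlation with each of the other 4 genes.

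**Figure D4:**
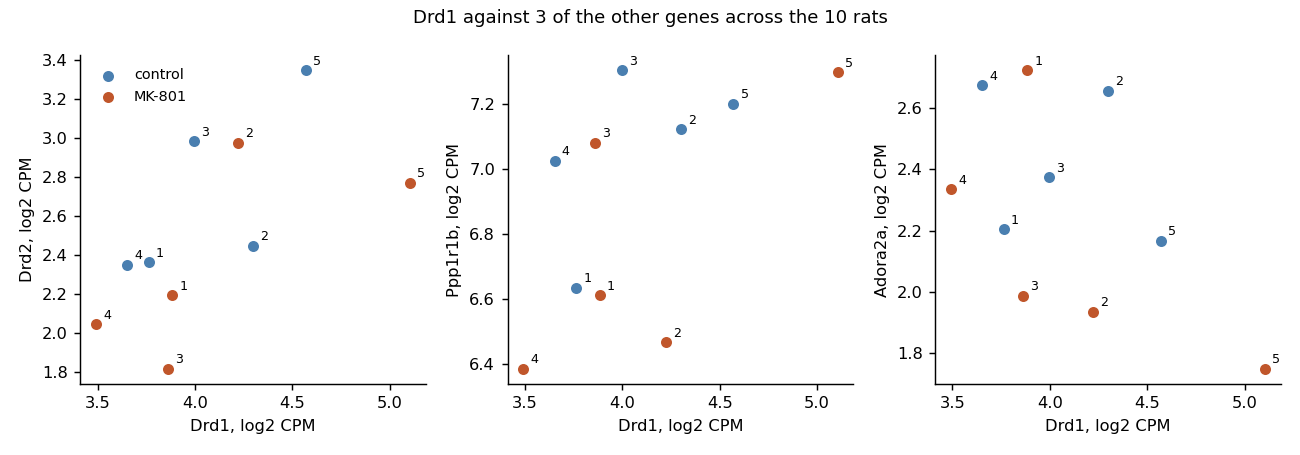
Log2 CPM of Drd1 (horizontal axes) against Drd2, Ppp1r1b and Adora2a (vertical axes) in the 10 rats, numbered by replicate, control in blue and MK-801 in orange. With Drd1, r is 0.625 for Drd2 and -0.534 for Adora2a, each at an adjusted permutation p of 0.368 over 10 pairs. MK-801 replicate 5 sits at the far right with the lowest Adora2a.

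Ratios of genes within a rat do not depend on the scaling of its library, and their gene lengths cancel when rats are compared. The log2 ratio of Drd1 to Drd2, the receptors of the direct and the indirect pathway, averaged 1.75 ± 0.441 (SD, n = 5) with MK-801 and 1.36 ± 0.311 (SD, n = 5) with saline, a difference of 0.39 (two-sided exact permutation test, p = 0.143, adjusted over 10 ratios 0.357). It was 0.25 without MK-801 replicate 5 and 0.21 without both rats numbered 5. In the MK-801 group, replicates 3 and 5 lay above all control rats at 2.05 and 2.34, where the highest control rat had 1.85. The ratio of Tac1 to Penk was not analysed here. All 10 pairs were then compared in this way, 9 of them added after seeing the data.

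Among these 10, the ratio of Ppp1r1b to Penk gave the smallest p-value. On the log2 scale it was 1.80, 1.70, 2.55, 1.46 and 1.63 in control replicates 1 to 5 and 1.67, 1.04, 0.63, 0.36 and 1.37 in MK-801 replicates 1 to 5, so that 4 of the 5 MK-801 rats lay below every control rat. The mean fell by 0.82 with MK-801 (two-sided exact permutation test, p = 0.0238, adjusted over 10 ratios 0.238). For Adora2a to Penk the difference was -0.80 (exact permutation p = 0.103, adjusted 0.357), and again 4 of 5 MK-801 rats lay below the control range, replicate 1 lying above it at -2.22. Adora2a and Penk are genes of the same striatal neurons, and their log2 ratio ran from -4.47 in MK-801 replicate 3 to -2.22 in MK-801 replicate 1. Drd1 to Adora2a likewise ran from 0.98 in control replicate 4 to 3.36 in MK-801 replicate 5. Both spans take in rats of the 2 groups, and their source was not tested.

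**Figure D5:**
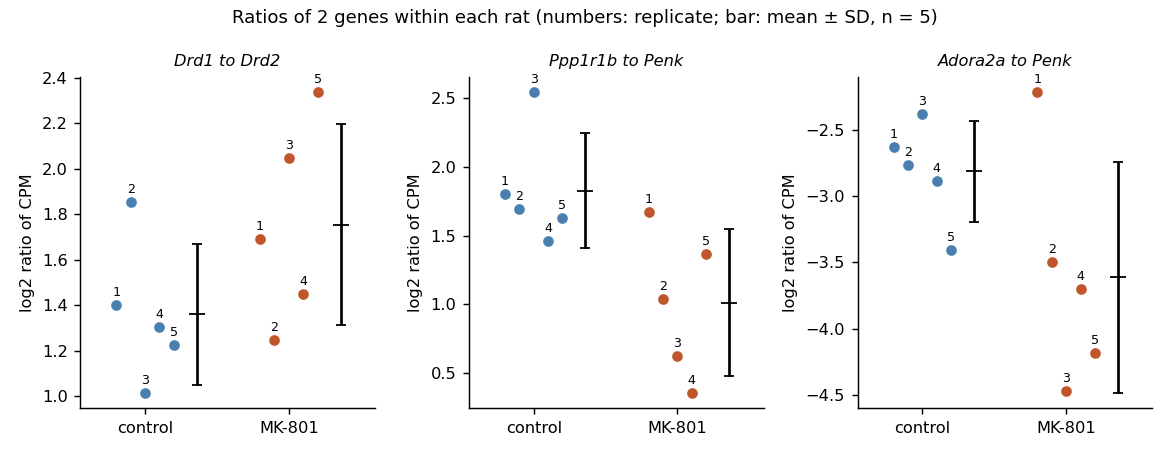
Log2 ratio of the CPM of 2 genes within each rat (vertical axes) for Drd1 to Drd2, Ppp1r1b to Penk and Adora2a to Penk, each point 1 rat numbered by replicate, with mean and SD of the group (n = 5). In the middle and right panels 4 of the 5 MK-801 rats lie below all control rats, and MK-801 replicate 1 does not.

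The genes whose pattern over the 10 rats was most like the mean of the 5 standardised genes were ENSRNOG00000014650 (r = 0.950) and ENSRNOG00000014613 (r = 0.938), and the most opposed were ENSRNOG00000014320 (r = -0.936) and ENSRNOG00000002548 (r = -0.930). These are given as a description, without names, and they are the extremes of all genes tested over only 10 rats. The mean itself was carried by Ppp1r1b (r = 0.846), Drd1 (r = 0.787) and Drd2 (r = 0.603), and held little of Penk (r = 0.179) or Adora2a (r = -0.157).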

How the data were processed

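The deposited table holds raw counts of reads per gene, as whole numbers, with 1 column per library. The submitters' processing notes and the methods name HISAT2 2.2.1 as aligner, SAMtools 1.15.1, the build mRatBN7.2 with Ensembl release 105, and featureCounts from Subread 2.0.1 as counter. The strand setting is not given in the sources used here. On GRCr8 no annotated gene overlapped any of the 6, but Stard3 lies next to Ppp1r1b and LOC100912510 next to Penk.

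The 6 genes, the lists and the tests were chosen with earlier results of these data known. Low counts were filtered by filterByExpr (minimum count 10, minimum total 15), libraries were scaled by TMM, and the groups were compared on all 16137 remaining genes with edgeR's quasi-likelihood test (version 4.0.16, R version 4.3.3, two-sided, Benjamini-Hochberg adjustment). The methods use DESeq2, here an alternative (version 1.42.0), as is limma-voom (limma version 3.58.1). Log2 CPM used a prior count of 2. Single values were compared by the exact permutation test over the 252 ways to divide 10 rats into 5 and 5 (smallest p = 0.00794), and correlations with 100000 permutations, or exactly below 10 rats. The named genes were fixed as all 6, and the 2 most and 2 least alike over the rats. The labels give no batch, and whether the rats of a group shared a litter is not stated. The scripts were tested on simulated data. Other gene lists fixed by symbol were not used here, since 0 of the 30560 identifiers matched RefSeq.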

Additional observations from a re-analysis of the deposited data

How the results depend on the processing

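With each rat left out in turn, between 0 and 2 of the 5 genes passed an unadjusted p-value of 0.05 against 1 with all rats, the 2 (Adora2a and Penk) without MK-801 replicate 1. It was 0 in DESeq2, in limma-voom and when the top-10 share was a covariate, and 2 with the replicate block (Ppp1r1b and Penk, at log2 fold changes of -0.29 and 0.52). Without both rats numbered 5 it was 1, Ppp1r1b. It was 1, Penk, in the remaining 5 settings, which were RLE and upper quartile scaling, no filter, a filter at a mean of 10 counts and a prior count of 2. No gene of the 5 passed an adjusted p-value of 0.05 in any of the 20 alternatives, nor met the criteria of the methods.

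The log2 fold change of Drd1, 0.13 as reported, was -0.16 with that covariate, -0.056 without both rats numbered 5 and between -0.21 and 0.29 with 1 rat left out. Its difference of mean log2 CPM, 0.06 as reported, was -0.058 without both rats numbered 5 and between -0.19 and 0.21 with 1 rat left out. The cause was not tested. The other 4 genes kept their direction in all 20 alternatives, as did the 3 correlations given in full in 14 and the 3 ratios given in full in 12.

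Both groups are numbered 1 to 5, and no source ties a number to a shared litter, batch or day. The correlation of deviations between same-numbered rats passed 0.1 in 3 of the 5 pairs, and pairing was not assumed. It was 0.319 for the rats numbered 5, and 5 of the 10 rats correlated best with their own number. The mean over same-numbered pairs was 0.124, against -0.031 over differently numbered pairs, and the source of this was not tested. With the replicate block the log2 fold change of Drd1 was 0.07, and no adjusted call changed.

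DESeq2 was run without the filter, on 23914 genes, so that tool and filter changed together in its counts. Its default settings also leave genes of low mean count out of the adjustment. Over all genes, the adjusted calls numbered 104 in DESeq2, 0 in edgeR without a filter and 12 without MK-801 replicate 1, against 0. By the criteria of the methods the count of 37 genes became 115 in DESeq2, 337 in edgeR without a filter (also 23914 genes), 58 without MK-801 replicate 1, 64 without MK-801 replicate 5 and 68 without both rats numbered 5. Unadjusted calls at 0.05 numbered 777 with the covariate, 1458 without control replicate 3 and 1474 without control replicate 4, against 2235. With 92 to 299 counts for Drd2 and 94 to 196 for Adora2a, counting error is a larger part of the spread than for Ppp1r1b.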
